A study of Mus musculus with 6 samples.

Results

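Mast cells leave a small set of transcripts in whole tumours, made of granule proteases, the receptors for stem cell factor and IgE, a lineage factor and the histamine-forming enzyme. The 9 genes followed here are Cpa3, Mcpt4, Tpsb2, Cma1, Kit, Fcer1a, Ms4a2, Gata2 and Hdc. They were taken by symbol from the 55357 Ensembl genes of the deposited table, and each symbol was found on 1 row. Values are transcripts per 1000000 (TPM). The scaling takes out transcript length and gives all tumours an equal total, so levels of different genes can be set side by side. The tumours were subcutaneous grafts of 250000 cells of KPC1242, a pancreatic ductal adenocarcinoma line of the mouse, in C57BL/6J mice. Folinic acid (FA), a reduced folate, was given by mouth to 1 group at 2 mg daily from day 8 to day 12, phosphate-buffered saline (PBS) was given on the same days to the other, and tumours were taken on day 14. RNA from 3 FA and 3 PBS tumours was sequenced, 1 library per tumour, to ask what FA does to the tumour microenvironment. A graft of 1 line under the skin may hold host cells of the tissue around it as well as those within the tumour. The labels leave unsaid whether every tumour had its own mouse, so p-values measure the spread between these 6 tumours.

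TPM keeps no read depth, so no counting error can be given. The ductal keratin gene Krt19, which checks the tumour label, lay between 1177 and 1312 TPM in FA-treated tumours and between 1071 and 1186 TPM in PBS-treated tumours. FA replicate 3 stood apart over all genes, with correlations across genes of 0.949 to 0.968 with the other tumours. The descriptions of the FA samples share 1 prefix and those of the PBS samples another, so what the prefix marks and the treatment cannot be told apart.

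Mast cells arise from bone marrow progenitors, settle in connective tissue and mucosa, and store proteases and histamine in granules. Antigen that bridges IgE on the receptor FceRI makes them release the granules, and the receptor tyrosine kinase KIT keeps them alive. In mice, mast cells of connective tissue such as skin hold carboxypeptidase A3, the chymases encoded by Mcpt4 and Cma1, and the tryptase encoded by Tpsb2, while mucosal mast cells hold the chymases encoded by Mcpt1 and Mcpt2. In pancreatic tumours, mast cells lie in the stroma.

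The 4 connective-tissue protease genes were the most abundant of the 9, and their order across tumours was nearly the same for each. All 4 were lowest in FA replicate 1 and highest in FA replicate 2, with the 3 PBS tumours between these extremes. The FA group therefore held both ends of the range, and the difference between group means was smaller than the spread among FA tumours. In bulk RNA, fewer mast cells and less RNA per mast cell cannot be told apart.

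Tpsb2 (ENSMUSG00000033825), a tryptase that forms tetramers on granule heparin, was the highest, at 6.23, 31.6 and 21.0 TPM in FA replicates 1, 2 and 3, against 11.4, 13.4 and 19.4 TPM in PBS replicates 1, 2 and 3. The FA tumours spanned 5.07-fold and the PBS tumours 1.71-fold. Mcpt4 (ENSMUSG00000061068), the main chymotrypsin-like chymase of mouse connective-tissue mast cells, was at 4.49, 15.8 and 13.4 TPM in FA-treated tumours, against 6.32, 7.05 and 8.57 TPM in PBS-treated tumours. FA replicates 2 and 3 were above every PBS tumour and FA replicate 1 was below every PBS tumour. Cma1 (ENSMUSG00000022225), the mouse alpha-chymase, was at 5.00, 15.5 and 12.8 TPM in FA-treated tumours, against 7.09, 6.14 and 8.86 TPM in PBS-treated tumours. Cpa3 (ENSMUSG00000001865), a zinc metallopeptidase that trims peptides from their carboxyl end and is stored beside the chymases, was at 4.37, 15.2 and 8.63 TPM in FA-treated tumours, against 5.70, 5.39 and 6.97 TPM in PBS-treated tumours. Again 2 FA tumours lay above and 1 lay below the whole PBS range. Summed over the 4 proteases, the level was 20.1, 78.0 and 55.8 TPM in FA-treated tumours and 30.5, 32.0 and 43.8 TPM in PBS-treated tumours.

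**Figure D1:**
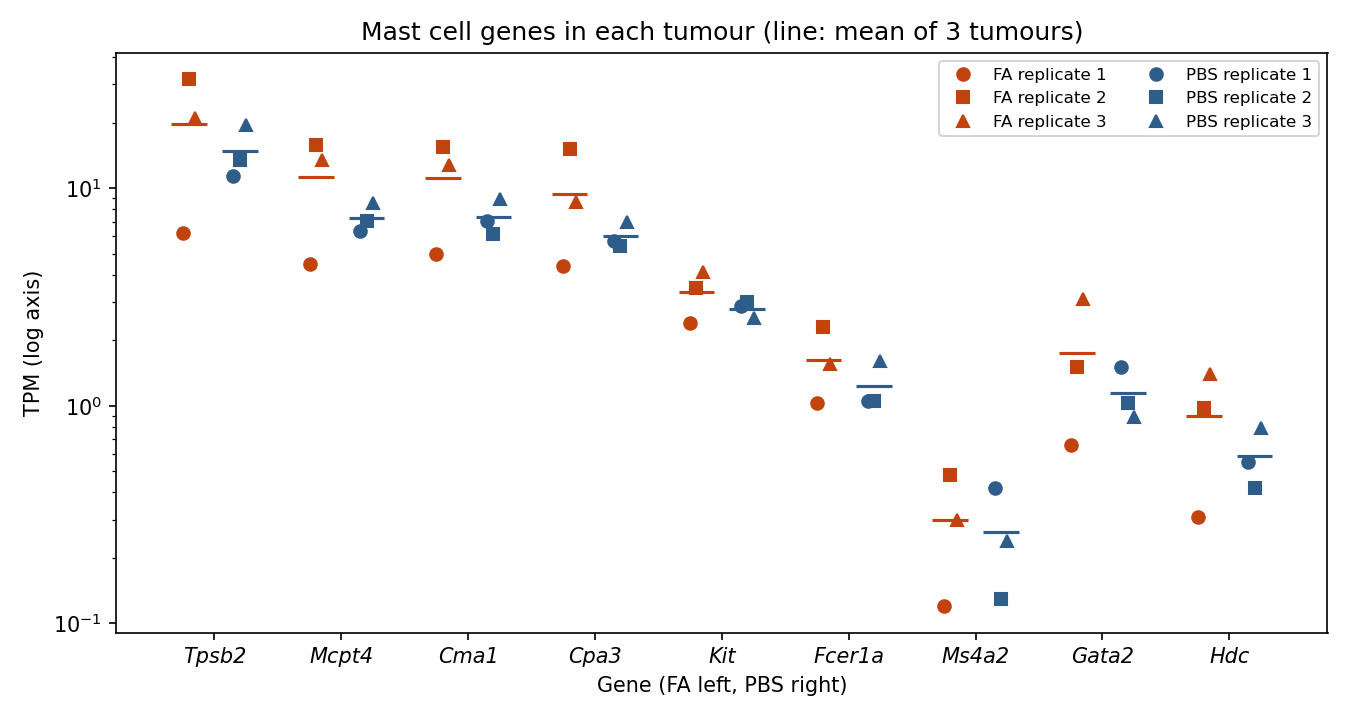
TPM on a log axis of the 9 mast cell genes in each tumour, FA tumours left and PBS tumours right for each gene, with a line at the mean of 3 tumours and a symbol for each replicate number. For every gene FA replicate 1 is the lowest point of all 6, such as 6.23 TPM for Tpsb2, and the highest point is FA replicate 2 or FA replicate 3.

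Receptor genes were scarcer than protease genes. Kit (ENSMUSG00000005672), the receptor for stem cell factor, was at 2.41, 3.49 and 4.11 TPM in FA-treated tumours, against 2.87, 3.0 and 2.52 TPM in PBS-treated tumours. Its range over the 6 tumours, 1.71-fold, was the narrowest of the 9 genes, and here FA replicate 3 was the highest tumour. Fcer1a (ENSMUSG00000005339), the IgE-binding alpha chain of FceRI, was at 1.03, 2.31 and 1.55 TPM in FA-treated tumours, against 1.05, 1.05 and 1.61 TPM in PBS-treated tumours. FA replicate 2 was alone above the PBS range, and FA replicate 1 was level with PBS replicates 1 and 2. Ms4a2 (ENSMUSG00000024680), the signal-amplifying beta chain of FceRI, was the lowest member, at 0.12, 0.48 and 0.30 TPM in FA-treated tumours, against 0.42, 0.13 and 0.24 TPM in PBS-treated tumours. The beta chain thus ranked well under the alpha chain in each tumour, and its groups covered almost the same range.

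The genes of the lineage factor and the histamine enzyme were highest in FA replicate 3. Gata2 (ENSMUSG00000015053), a zinc-finger factor needed for mast cell development and also made by endothelium and blood progenitors, was at 0.66, 1.5 and 3.09 TPM in FA-treated tumours, against 1.5, 1.03 and 0.89 TPM in PBS-treated tumours. Only FA replicate 3 exceeded the PBS range. Hdc (ENSMUSG00000027360), the histidine decarboxylase that forms histamine and is also made by some other myeloid cells, was at 0.31, 0.98 and 1.40 TPM in FA-treated tumours, against 0.55, 0.42 and 0.79 TPM in PBS-treated tumours. FA replicates 2 and 3 were above the PBS range and FA replicate 1 below it. The order of tumours for Hdc was that of Cpa3 and Cma1, except that FA replicates 2 and 3 changed places.

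By mean level over the 6 tumours, the order was Tpsb2 at 17.2 TPM, Mcpt4 at 9.27, Cma1 at 9.22, Cpa3 at 7.71, Kit at 3.07, Gata2 at 1.45, Fcer1a at 1.43, Hdc at 0.742 and Ms4a2 at 0.282 TPM. Mcpt4, Cma1 and Cpa3 had levels closer to each other than their spread over tumours, as had Gata2 and Fcer1a, although Mcpt4 and Cma1 were each above Cpa3 within every tumour.

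Upstream sequences are shown for the genes made most strictly by mast cells and basophils. GATA factors, Gata2 among them, bind a short motif, which was searched for in these sequences. Whether Gata2 has a part in the levels of these genes was not tested. Sequences are those of RefSeq on GRCm38.p6, which need not be the build behind the TPM. The table held an entry for 8 of the 9 genes, all but Tpsb2. Each line gives the 250 bases before the transcription start, read 5′ to 3′ on the gene's strand. Capitals mark GATA motifs (AGATAA and AGATAG, together with TGATAA and TGATAG, on either strand) and E-boxes of the kind that the mast cell factor MITF binds (CACGTG or CATGTG, on either strand). No matches overlap.
Cpa3, chr3:20242182-20242431, minus strand: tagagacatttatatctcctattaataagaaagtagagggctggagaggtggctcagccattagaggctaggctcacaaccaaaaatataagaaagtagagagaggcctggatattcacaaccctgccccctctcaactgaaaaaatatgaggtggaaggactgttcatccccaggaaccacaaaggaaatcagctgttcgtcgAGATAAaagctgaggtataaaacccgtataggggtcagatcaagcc
Mcpt4, chr14:56062311-56062560, minus strand: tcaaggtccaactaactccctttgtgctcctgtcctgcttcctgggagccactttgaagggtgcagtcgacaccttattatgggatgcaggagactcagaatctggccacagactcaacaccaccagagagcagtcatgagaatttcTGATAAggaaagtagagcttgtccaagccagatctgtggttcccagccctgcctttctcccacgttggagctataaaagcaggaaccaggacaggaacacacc
Cma1, chr14:55944676-55944925, minus strand: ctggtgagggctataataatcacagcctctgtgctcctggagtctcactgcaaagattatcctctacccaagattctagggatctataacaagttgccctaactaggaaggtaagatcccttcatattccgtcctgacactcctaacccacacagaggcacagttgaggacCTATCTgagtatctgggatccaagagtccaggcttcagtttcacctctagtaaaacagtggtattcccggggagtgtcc
Fcer1a, chr1:173227230-173227479, minus strand: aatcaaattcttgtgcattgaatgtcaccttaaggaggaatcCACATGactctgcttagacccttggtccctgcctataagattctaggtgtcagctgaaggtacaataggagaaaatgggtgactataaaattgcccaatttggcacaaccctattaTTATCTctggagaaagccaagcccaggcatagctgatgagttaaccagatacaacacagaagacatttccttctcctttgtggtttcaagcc
Ms4a2, chr19:11623720-11623969, minus strand: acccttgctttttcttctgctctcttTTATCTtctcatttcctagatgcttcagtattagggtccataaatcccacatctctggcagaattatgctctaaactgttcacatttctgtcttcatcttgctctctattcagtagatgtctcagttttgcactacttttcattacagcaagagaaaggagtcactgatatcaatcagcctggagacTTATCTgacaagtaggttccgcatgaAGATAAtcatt

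Of the 8 genes with an entry, 6 held a GATA motif in these 250 bases, namely the 5 shown and Hdc, while Kit and Gata2 held none. Over all 32851 promoters in the table, 26.5% held one. In Cpa3 the motif AGATAA began 46 bases before the start, in Mcpt4 TGATAA began at 103 bases, in Cma1 CTATCT at 79 bases and in Fcer1a TTATCT at 92 bases, the last 2 read on the opposite strand. Ms4a2 held 3, the nearest beginning 11 bases before the start. An E-box was found in Fcer1a alone, 208 bases before the start, and in 17.6% of all promoters. A match of letters is a description of the sequence and says nothing of binding in these tumours.

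The comparison of FA with PBS was made on log2(TPM + 1), a scale that understates the change of genes with few TPM, by limma over the 15023 genes whose mean reached 1 TPM. Of the 9 mast cell genes, 7 passed this filter, and Ms4a2 and Hdc did not. No gene of the whole table passed an adjusted p under 0.05 (0 genes, 0%), and an unadjusted p under 0.05 was reached by 192 genes, 1.28%. Of the 7 mast cell genes tested, 0 passed at the adjusted and 0 at the unadjusted threshold, with unadjusted p-values from 0.291 to 0.762 by limma.

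Mean differences were above 0 for all 9 genes, but the intervals were wide. The share of tested genes with a mean difference above 0 was 50.7%, and the median difference was 0.27 over the 7 tested mast cell genes and 0.0016 over all 15023. The sign was not particular to mast cell genes. Of tested endothelial markers 8 of 9 were above 0 (median 0.32), and of fibroblast markers 6 of 8 (0.25). Skeletal muscle markers had 7 of 7 (0.94), tumour epithelium markers 6 of 8 (0.095) and melanocyte markers 0 of 1. Cpa3 averaged 9.39 ± 5.45 TPM in FA-treated tumours and 6.02 ± 0.837 TPM in PBS-treated tumours (SD, n = 3 each), a log2 difference of 0.43 ± 0.38 (SE) with a 95% interval from -0.47 to 1.33. The interval therefore covers differences in either direction. Cma1 averaged 11.1 ± 5.44 TPM in FA-treated tumours and 7.36 ± 1.38 TPM in PBS-treated tumours, a difference of 0.42 ± 0.37, and Mcpt4 11.2 ± 5.96 and 7.31 ± 1.15 TPM, a difference of 0.41 ± 0.41. Tpsb2, the most abundant, had the smallest difference of the tested members, 0.17 ± 0.54, from -1.11 to 1.45. For the receptors, the difference was 0.17 ± 0.18 for Kit, from -0.26 to 0.61, and 0.21 ± 0.23 for Fcer1a, from -0.33 to 0.76. Gata2 differed by 0.27 ± 0.34, from -0.53 to 1.08. Each of these 7 had an adjusted p of 1 by limma. For the 2 genes under the filter, an exact two-sided permutation test over the 20 assignments of the tumours, whose smallest p is 0.1, gave p = 0.8 for Ms4a2 (0.30 ± 0.18 TPM in FA-treated tumours, 0.263 ± 0.146 TPM in PBS-treated tumours) and p = 0.5 for Hdc (0.897 ± 0.55 TPM in FA-treated tumours, 0.587 ± 0.188 TPM in PBS-treated tumours).

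**Figure D2:**
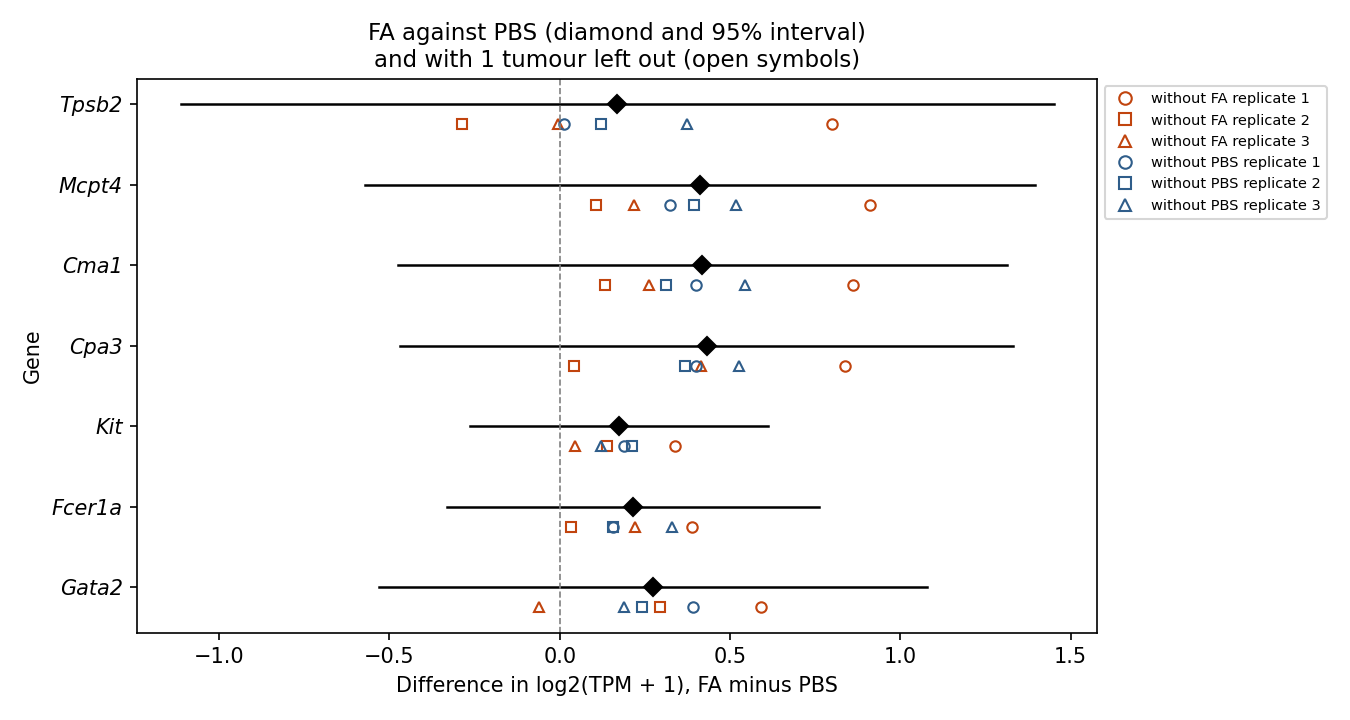
Difference in log2(TPM + 1), FA minus PBS, for the 7 mast cell genes tested, with its 95% interval (line) and the differences obtained with 1 tumour left out (open symbols). Every interval crosses 0, and the differences without FA replicate 1 lie farthest to the right, at 0.84 for Cpa3.

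Leaving out 1 FA tumour moved most of these differences and turned the sign of some. Without FA replicate 2 the difference was 0.041 for Cpa3, 0.11 for Mcpt4, 0.13 for Cma1, 0.034 for Fcer1a, 0.14 for Kit, 0.17 for Hdc, 0.29 for Gata2, -0.29 for Tpsb2 and -0.060 for Ms4a2. Without FA replicate 3 it was 0.22 for Mcpt4, 0.26 for Cma1, 0.046 for Kit, 0.028 for Hdc, 0.034 for Ms4a2, -0.0036 for Tpsb2 and -0.061 for Gata2, while Cpa3, at 0.42, and Fcer1a, at 0.22, hardly moved. Without FA replicate 1 it was 0.84 for Cpa3, 0.91 for Mcpt4, 0.86 for Cma1, 0.80 for Tpsb2, 0.34 for Kit, 0.39 for Fcer1a, 0.59 for Gata2, 0.46 for Hdc and 0.14 for Ms4a2. No tested member passed an adjusted p under 0.05 in any of these fits. Without FA replicate 1 the SE was 0.16 for Mcpt4, 0.18 for Cma1, 0.25 for Cpa3 and 0.27 for Tpsb2, small beside their differences. The adjusted p by limma was 0.83 for each tested member in that fit, in which 614 genes had an unadjusted p under 0.05. Unadjusted p-values of single members are not given for these fits. Leaving out 1 PBS tumour gave a difference below 0 for Ms4a2 alone, at -0.039 without PBS replicate 2, and moved Tpsb2 to 0.013 without PBS replicate 1 and to 0.37 without PBS replicate 3.

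Besides the sign of their mean difference, the mast cell genes shared extremes among the FA tumours. FA replicate 1 was the lowest of the 6 tumours for 9 of 9 genes, and the highest was FA replicate 2 for 6 genes and FA replicate 3 for 3. The share of all tested genes with these extremes was not counted, so whether they are particular to mast cell genes is not known. The margin was narrow for Ms4a2, at 0.12 TPM against 0.13 TPM in PBS replicate 2. It was also narrow for Fcer1a, at 1.03 TPM against 1.05 TPM in PBS replicates 1 and 2. In other lists, FA replicate 1 was alone lowest for 4 of 9 endothelial, 4 of 8 fibroblast and 0 of 8 tumour epithelium markers. All PBS values lay between the lowest and the highest FA value for 9 of 9 genes, 7 of them tested, where 34.8% of all tested genes showed this. No mast cell gene had all FA tumours above all PBS tumours, which 2.48% of tested genes had. The genes share the same 6 libraries, so these counts are not independent of each other.

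The genes fell into 2 groups by the tumour in which they peaked. FA replicate 2 was highest for the 4 proteases and both FceRI chains, and FA replicate 3 was highest for Kit, Gata2 and Hdc. To describe likeness, log2(TPM + 1) was centred on each gene's mean, and the root mean square difference from Cpa3 over the 6 tumours was ranked among the other 15022 tested genes. The nearest 3 were Cma1, with a difference of 0.152, Mcpt4, with 0.189, and the tryptase gene Tpsab1, with 0.221. The next 3 were Adamdec1, a metalloprotease gene of the ADAM family, with 0.24, Fmod, which encodes the matrix proteoglycan fibromodulin, with 0.262, and Epha3, an ephrin receptor gene, with 0.264. Fcer1a ranked 10 and Tpsb2 ranked 15, and Tpsb2 had a wider range than Cpa3. Kit ranked 243 and Gata2 ranked 1724. Hdc and Ms4a2, under the filter and so not ranked, had differences of 0.354 and 0.416. The measure takes in the size of the swings, so low genes with small swings on this scale are set apart by it, and with 6 tumours many genes lie close by.

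**Figure D3:**
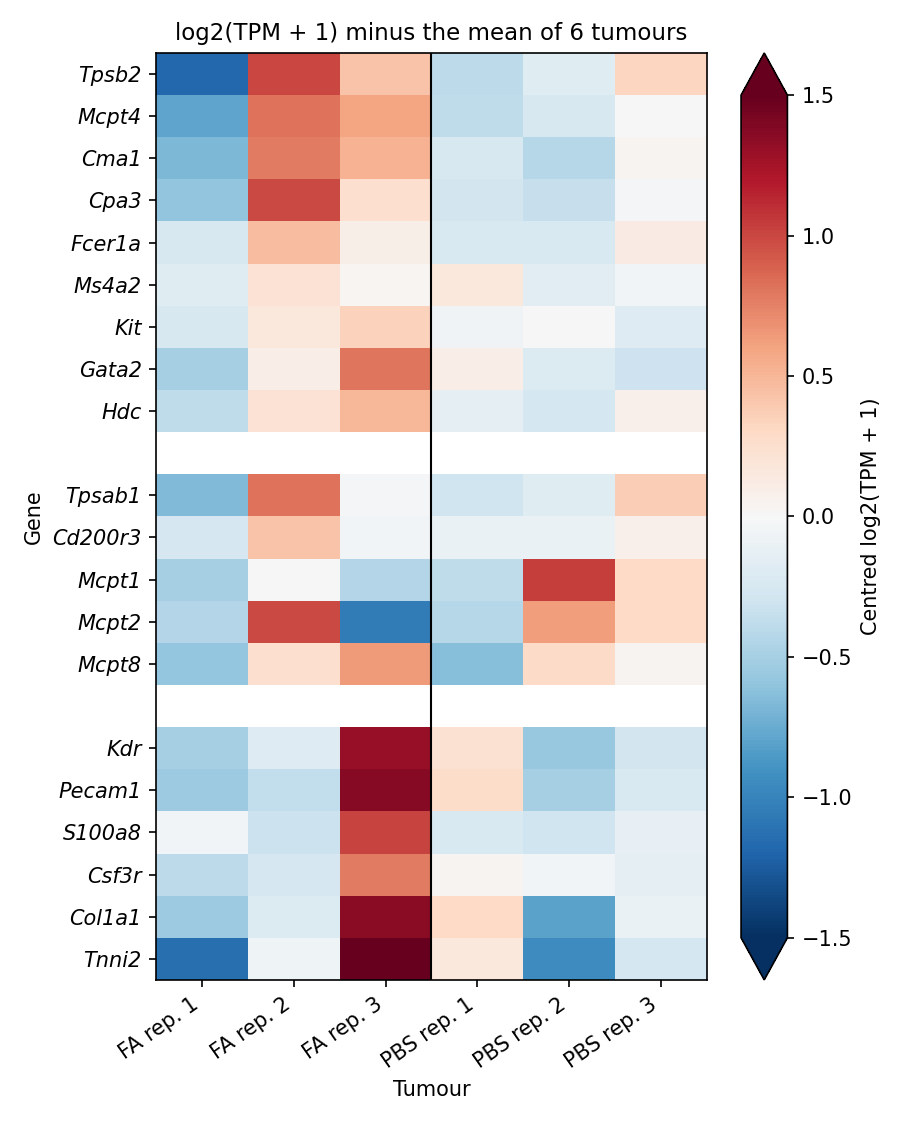
Log2(TPM + 1) minus the mean of the 6 tumours for mast cell genes (top block), other granule protease and basophil genes (middle block) and markers of endothelium, neutrophils, fibroblasts and skeletal muscle (bottom block), with FA tumours left of the line and PBS tumours right of it. The proteases are darkest red in FA replicate 2, while the bottom block is darkest red in FA replicate 3, as for Kdr at 17.4 TPM.

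Levels relative to Cpa3 in the same tumour showed which genes kept a steady proportion. Mcpt4 stood between 1.03 and 1.55 times Cpa3, Cma1 between 1.02 and 1.48 times, and Fcer1a between 0.152 and 0.236 times, although the level of Cpa3 itself varied 3.47-fold. Tpsb2 varied more, between 1.43 times in FA replicate 1 and 2.79 times in PBS replicate 3. Relative to Cpa3, Kit ranged from 0.23 to 0.557, Gata2 from 0.0988 to 0.358 and Hdc from 0.0646 to 0.162. Each of these 3 ratios was lowest in FA replicate 2, where Cpa3, their shared divisor, was itself highest. The 3 low ratios there are therefore not separate observations. The ratios of Gata2 and Hdc were highest in FA replicate 3. Ms4a2 varied 3.06-fold relative to Cpa3, on values of less than 0.5 TPM.

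Not every gene named for mast cell proteases behaved like these. The mucosal chymase gene Mcpt1 was at 10.4, 15.0 and 10.9 TPM in FA-treated tumours, against 11.4, 32.2 and 18.9 TPM in PBS-treated tumours. Mcpt2, a second mucosal mast cell chymase gene, was at 18.3, 50.9 and 11.6 TPM in FA-treated tumours, against 18.5, 39.5 and 31.2 TPM in PBS-treated tumours. Both were more abundant per length than Cpa3 in nearly every tumour, and their ratio to Cpa3 varied 6.02-fold and 5.43-fold. Mcpt8, a basophil protease gene, was at 11.4, 21.3 and 28.1 TPM in FA-treated tumours, against 11.03, 21.7 and 18.2 TPM in PBS-treated tumours. Prss34, the other basophil protease gene listed, stayed at or under 0.20 TPM in every tumour. Cd200r3, a receptor gene of basophils and mast cells, lay between 0.21 and 0.94 TPM. Unlike Mcpt1, Mcpt2 and Mcpt8, it kept a fairly steady proportion to Cpa3, with a ratio that varied 1.57-fold. Likeness to Cpa3 placed Mcpt8 at rank 755, Mcpt2 at 13643 and Mcpt1 at 14276 of 15022. Of the 9 other granule proteases listed 4 were tested, 2 had a mean difference above 0, and 0 passed, with differences of -0.63 ± 0.35 for Mcpt1, -0.34 ± 0.53 for Mcpt2, 0.21 ± 0.36 for Mcpt8 and 0.08 ± 0.39 for Tpsab1 (adjusted p of 1 each, limma).

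**Figure D4:**
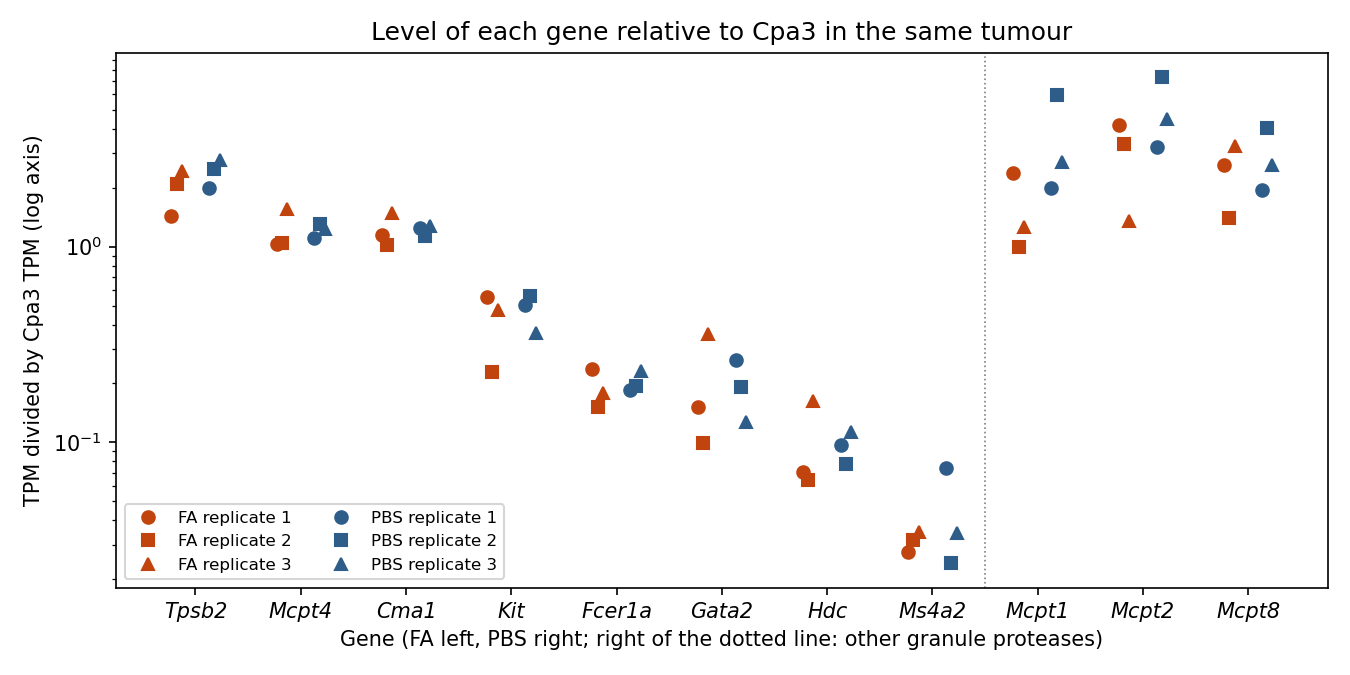
TPM of each gene divided by the TPM of Cpa3 in the same tumour, on a log axis, FA tumours left and PBS tumours right. Mcpt4, Cma1 and Fcer1a form tight groups, while Mcpt1 ranges from 0.991 to 5.97 times Cpa3.

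Genes in the same chromosomal cluster did not all share a pattern. In RefSeq's GRCm38.p6 annotation, Cma1 and Mcpt4 lie on chromosome 14 in a cluster with Mcpt1, Mcpt2, Mcpt9, Mcpt8, Ctsg and the granzyme genes Gzmb to Gzmg. Between Cma1 and Mcpt4, which tracked each other, lie Cma2 and Mcpt9, both at or under 0.10 TPM in every tumour, and Mcpt1 and Mcpt2. Farther along, Gzmf was at 6.14, 18.2 and 0 TPM in FA-treated tumours and at 0.05, 9.50 and 26.9 TPM in PBS-treated tumours, an order unlike that of Cma1 and Mcpt4. Its 3 higher tumours, FA replicate 2 and PBS replicates 2 and 3, were also the 3 higher ones for Mcpt1 and Mcpt2. Tpsb2 lies on chromosome 17 beside Tpsab1, which the same annotation calls a transcribed pseudogene in C57BL/6J. Tpsab1 was at 0.56, 3.37 and 1.42 TPM in FA-treated tumours, against 1.01, 1.18 and 2.19 TPM in PBS-treated tumours, and Tpsg1 stayed at or under 0.26 TPM.

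Reads could be shared between some of these genes. In the GENCODE M21 transcripts, 5.48% of the 50-base windows of Mcpt4 also occur in another gene, chiefly Cma2, and 5.38% of those of Cma1 occur in the pseudogene Gm48934. These shares are not a measure of error in the values of Mcpt4 and Cma1, and their effect on those values was not tested. Of the windows of Ms4a2, the lowest member, 2.1% were shared, chiefly with Ms4a4b, and of those of Hdc 0.141%. No window of Cpa3, Tpsb2, Fcer1a, Kit or Gata2 was shared.

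The remaining mast cell pathway was described from lists of genes by role. Of 11 genes that signal below FceRI, all 11 were tested, 10 had a mean difference above 0, and 0 passed, with a median of 0.13. Fcer1g, the gamma chain that other Fc receptors share, was at 54.4, 59.2 and 111.6 TPM in FA-treated tumours, against 68.7, 56.4 and 54.2 TPM in PBS-treated tumours. It was far above Fcer1a and highest in FA replicate 3. The kinase gene Syk differed by 0.18 ± 0.21 and the adaptor gene Gab2 by 0.15 ± 0.14. Of 6 genes of lipid mediator synthesis, 5 of 6 tested had a mean difference above 0 and 0 passed. Hpgds, the haematopoietic prostaglandin D synthase, was at 3.49, 3.31 and 3.66 TPM in FA-treated tumours, against 2.92, 2.13 and 2.59 TPM in PBS-treated tumours. All 3 FA tumours lay above all PBS tumours for Hpgds, and its difference of 0.34 ± 0.14 had an unadjusted p of 0.0461 and an adjusted p of 1 by limma. Ltc4s, the leukotriene C4 synthase, differed by 0.25 ± 0.28.

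Among 11 other receptors, 6 were tested, 5 had a mean difference above 0 and 0 passed, with a median of 0.28. The leukotriene receptor gene Cysltr1 was at 3.50, 3.21 and 4.21 TPM in FA-treated tumours, against 3.30, 2.16 and 2.29 TPM in PBS-treated tumours, a difference of 0.38 ± 0.17. Csf2rb, the common beta chain of the receptors for IL-3, IL-5 and GM-CSF, was at 7.97, 9.57 and 21.6 TPM in FA-treated tumours, against 9.70, 7.56 and 7.74 TPM in PBS-treated tumours. The connective-tissue mast cell receptor gene Mrgprb2 stayed under 0.5 TPM in every tumour. Its relative Mrgprb1, named here after its values were seen, was at 0.90, 1.46 and 0.68 TPM in FA-treated tumours, against 0.36, 0.15 and 0.44 TPM in PBS-treated tumours. These groups did not overlap, but the gene averaged under 1 TPM. Its exact two-sided permutation p of 0.1 is the smallest that 3 against 3 tumours allow. The same held for Adora3 of this list, at 0.44, 0.52 and 0.81 TPM in FA-treated tumours, against 0.41, 0.27 and 0.39 TPM in PBS-treated tumours. Of all tested genes, 2.48% had every FA tumour above every PBS tumour. The ligand genes Kitl and Il33 were more abundant than the genes of their receptors. Kitl, which encodes stem cell factor, was at 54.8, 68.0 and 43.9 TPM in FA-treated tumours, against 49.6, 53.9 and 48.7 TPM in PBS-treated tumours, and its difference was 0.11 ± 0.15. Il33 lay between 192 and 288 TPM in FA-treated tumours and between 228 and 275 TPM in PBS-treated tumours, while the gene of its receptor, Il1rl1, lay between 1.42 and 5.05 TPM. Il3 and Il9 were listed at 0 in all 6 tumours. Of the 8 ligands and cytokines 5 were tested, 2 had a mean difference above 0, and 0 passed.

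Of 9 further transcription factors 7 were tested, 3 had a mean difference above 0, and 0 passed. Spi1, a factor of myeloid cells in general, differed by 0.34 ± 0.30, and the GATA cofactor gene Zfpm1 by -0.18 ± 0.18. Mitf lay between 1.27 and 2.16 TPM in FA-treated tumours and between 1.21 and 1.67 TPM in PBS-treated tumours, and Gata1 was at or under 0.11 TPM. For granule storage all 6 genes were tested, 2 had a mean difference above 0, and 0 passed, with Srgn, the proteoglycan that binds proteases in granules of many blood cells, at 49.5, 34.1 and 85.3 TPM in FA-treated tumours, against 52.5, 44.1 and 49.9 TPM in PBS-treated tumours. Of the 7 histamine receptor and breakdown genes 2 were tested and 0 passed. The histamine methyltransferase gene Hnmt differed by 0.20 ± 0.26, Hrh1 lay between 0.93 and 1.30 TPM in FA-treated tumours and between 0.72 and 0.95 TPM in PBS-treated tumours, and Hrh3 and Hrh4 were at or under 0.04 TPM.

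Several members are also made by other cells, so markers of those cells were set beside them. Endothelial markers, 9 genes, summed to 111.5, 143.9 and 397.1 TPM in FA-treated tumours, against 186.2, 122.1 and 145.5 TPM in PBS-treated tumours. The 8 fibroblast markers summed to 1509, 1829 and 4152 TPM in FA-treated tumours and to 2384, 1399 and 1919 TPM in PBS-treated tumours. The 9 neutrophil markers summed to 19.7, 16.4 and 40.9 TPM in FA-treated tumours and to 17.8, 16.5 and 17.2 TPM in PBS-treated tumours, most of it S100a8 and S100a9. All 3 sums were highest in FA replicate 3, the tumour in which Kit, Gata2 and Hdc also peaked, and the part of these cells in those values was not tested. The proteases peaked in FA replicate 2 instead, where each of these sums was at or under the highest PBS value. The 6 blood progenitor markers summed to 25.6, 25.9 and 84.6 TPM in FA-treated tumours and to 41.0, 26.7 and 21.4 TPM in PBS-treated tumours, most of it Cd34, which endothelium also makes, with Elane at or under 0.07 TPM. Of 7 dendritic cell markers the sums were 14.1, 16.3 and 31.5 TPM in FA-treated tumours and 18.1, 14.6 and 13.6 TPM in PBS-treated tumours. Skeletal muscle markers, 7 genes of tissue around the graft, summed to 13.1, 139.2 and 1200 TPM in FA-treated tumours and to 170.3, 14.9 and 126.5 TPM in PBS-treated tumours. The muscle and endothelial sums were thus lowest in FA replicate 1, the tumour lowest for each mast cell gene. Gene by gene, FA replicate 1 was lowest for 4 of the 9 endothelial markers and alone lowest for 3 of the 7 muscle markers, with 2 more tied at 0 with PBS replicate 2. The part of surrounding tissue in the mast cell values was not tested. PBS replicate 2 had nearly as little muscle, at 14.9 TPM, with a protease sum of 32.0 TPM.

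**Figure D5:**
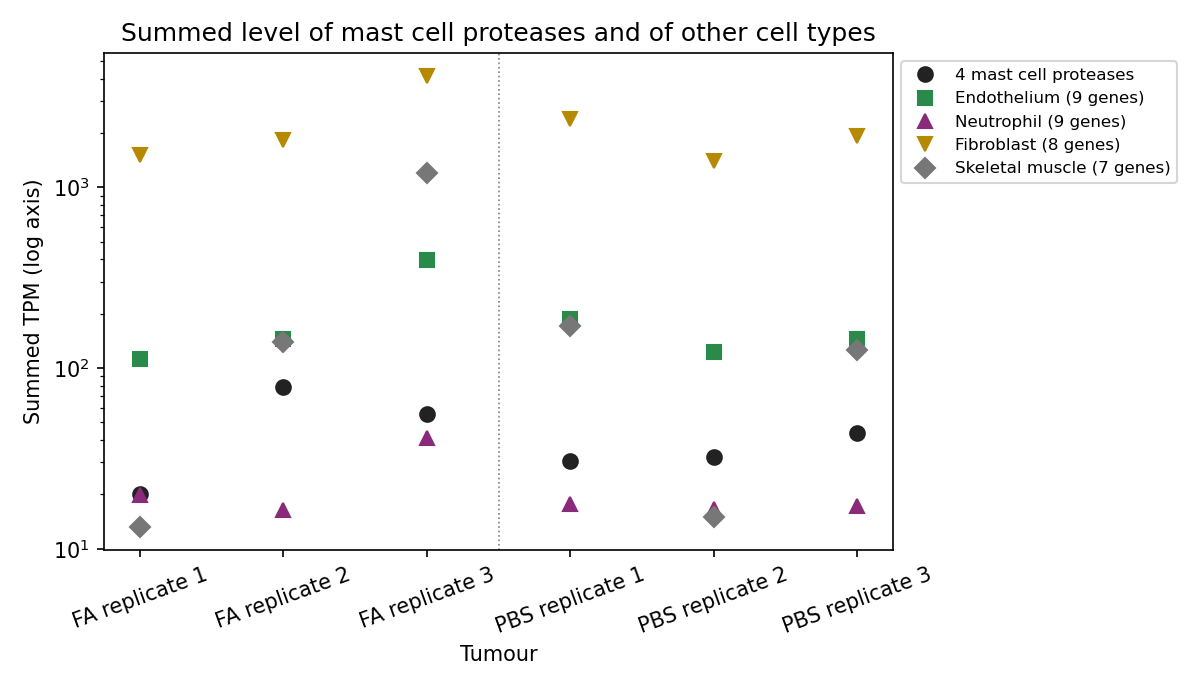
Summed TPM on a log axis of the 4 mast cell proteases and of marker lists for endothelium, neutrophils, fibroblasts and skeletal muscle in each tumour. The protease sum is highest in FA replicate 2, at 78.0 TPM, and the other 4 sums in FA replicate 3.

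Melanocytes also make Kit, and eosinophils, basophils and neutrophils are granulocytes. The melanocyte genes Tyr and Tyrp1 were at or under 0.01 TPM and Mlana at or under 0.17 TPM, and the 6 melanocyte markers summed to between 1.35 and 1.86 TPM in FA-treated tumours and between 1.22 and 2.00 TPM in PBS-treated tumours, most of it Pmel. The eosinophil granule genes Epx and Prg3 were at or under 0.02 TPM, and Ear1 and Ear6 were listed at 0 in all tumours. The sum of the 9 eosinophil markers, 28.6 to 66.8 TPM in FA-treated tumours and 25.8 to 32.1 TPM in PBS-treated tumours, was made up almost wholly of Il5ra and Ear2. The 6 basophil markers summed to between 126 and 149 TPM in FA-treated tumours and between 120 and 138 TPM in PBS-treated tumours, of which Itga2 and Il3ra, neither of them restricted to basophils, made up the larger part. Mcpt8, of the same list, was above Cpa3 in every tumour at the levels given above. Among neutrophil markers, S100a8 lay between 5.22 and 14.8 TPM in FA-treated tumours and between 5.31 and 6.16 TPM in PBS-treated tumours, and S100a9 between 6.87 and 15.4 TPM in FA-treated tumours and between 6.25 and 6.70 TPM in PBS-treated tumours, while Ly6g and Ngp were at or under 0.11 TPM. The part of basophils and neutrophils in the mast cell values was not tested. The 6 adipocyte markers summed to 24.3, 58.2 and 170.8 TPM in FA-treated tumours and to 70.4, 49.1 and 33.5 TPM in PBS-treated tumours. Skin keratin genes differed in level, with Krt5 listed at 0 in all tumours. Krt14 lay between 1.85 and 6.59 TPM in FA-treated tumours and between 1.69 and 2.60 TPM in PBS-treated tumours. Krt10 was higher, between 6.68 and 8.62 TPM in FA-treated tumours and between 7.47 and 7.81 TPM in PBS-treated tumours.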

How the data were processed

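RNA of 6 tumours was prepared as stranded total RNA libraries with 12 PCR cycles, from 4 µg of RNA with an integrity number above 8, per the labels' protocols. The authors deposited TPM values per Ensembl gene, 1 column per tumour, each summing to 1000000. Among tools, FastQC, STAR, featureCounts and RSEM appear in the submitters' processing notes. Their versions and roles, the build and the annotation are not given in the sources read. TPM holds no depth, so counting intervals are not given and no count test was run.

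Columns were matched to samples through their descriptions. The test was limma 3.58.1 (R 4.3.3) on log2(TPM + 1), with an empirical Bayes trend, for genes whose mean reached 1 TPM, two-sided, adjusted by Benjamini-Hochberg over all 15023 genes. Members under the filter had an exact permutation test. The fit was tested on simulated data. The 9 members, 20 further lists and the tests were chosen with earlier results of these data known. All 158 symbols were in the table. Genes named from a list are up to 4 with the smallest unadjusted p, those at or near 0, and some chosen after their values were seen (Il33, Il1rl1, Mitf, Hrh1, Mrgprb1, Mrgprb2, Adora3, Gzmf, Cd200r3). Motifs were searched in the 250 bases upstream of the start, not in the 300 first planned, so that no transcribed sequence was used. Protein identities were not computed.

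Alternatives were other pseudocounts (0.1, 0.5), filters (none, 5 TPM), scalings and weights, no trend, a replicate block, a threshold of 0.1 and leaving out each tumour.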

Additional observations from a re-analysis of the deposited data

How the results depend on the processing

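The count of genes higher in FA by limma, 0, became 2 without a filter on low values, neither of them a mast cell gene, and stayed at 0 in the other settings. The count lower in FA was 0, and 0 to 1 with 1 tumour left out, the 1 being without FA replicate 3. The count at an unadjusted p under 0.05, 192, was 766 without the filter, 112 at a mean of at least 5 TPM and 322 with array weights, and 127 to 614 with 1 tumour left out. No mast cell gene passed an adjusted p under 0.05 in any setting in which it was tested. In the settings that keep every tumour, 0 of 76 member differences changed sign. Part of that count was fixed beforehand, because the filters, the trend and the replicate block cannot move a difference. Only the other pseudocounts, scalings and weights could. With 1 tumour left out 5 of 54 did. The range was then -0.29 to 0.80 for Tpsb2 (-0.29 without FA replicate 2, -0.0036 without FA replicate 3), -0.060 to 0.14 for Ms4a2 (-0.060 without FA replicate 2, -0.039 without PBS replicate 2) and -0.061 to 0.59 for Gata2 (-0.061 without FA replicate 3). The median difference over the 9 genes, 0.22, ranged from 0.046 to 0.59 in the same way. It was 0.37 with a pseudocount of 0.1 and 0.12 with array weights. With a pseudocount of 0.1, Hdc was at 0.38, Ms4a2 at 0.11 and Fcer1a at 0.33, and with one of 0.5 Ms4a2 was at 0.060. With array weights, Tpsb2 was at 0.055, Gata2 at 0.068 and Hdc at 0.060. On the scale of TPM + 1 the median ratios to Cpa3 of Fcer1a, Ms4a2, Gata2 and Hdc moved to 0.313, 0.166, 0.313 and 0.228, since a pseudocount lifts low genes.

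Over all genes, tumours with the same replicate number did not deviate together (correlations across genes of -0.208, 0.0533 and -0.0221). These values cannot exclude a pairing, and the labels give none. With a replicate block, 0 genes were higher and 0 lower, and 178 had an unadjusted p under 0.05. The member differences kept their values, which a block balanced over the groups cannot change. Their SE went from 0.41 to 0.31 for Mcpt4 and from 0.54 to 0.38 for Tpsb2. For Kit it went from 0.18 to 0.20 and for Gata2 from 0.34 to 0.36.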
